A study of Drosophila melanogaster with 18 samples.

Results

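In early Drosophila melanogaster embryos, 291 of 4970 interphase peaks of the GAGA factor (GAF) lay under an acetylated H4K8 peak in mitosis but not in interphase. They were picked from the deposited peak lists as interphase GAF peaks that shared at least 1 bp with a mitotic H4K8ac peak and none with an interphase H4K8ac peak, which is 5.86% of the interphase GAF list. They are called mitosis-only peaks below. Of the other interphase GAF peaks, 963 overlapped H4K8ac in both stages, 183 in interphase only and 3533 in neither stage. A GAF peak was called retained when it overlapped a peak of the mitotic GAF list by at least 1 bp, and 145 of the 291 mitosis-only peaks were retained.

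All embryos were wild type (the yw strain), collected at 1 to 2.5 h after egg laying as the labels give it (the methods give a somewhat later start), formaldehyde-fixed, stained for phosphorylated histone H3 serine 10 and sorted by flow cytometry and then by hand into mitotic and interphase pools of about 1000 embryos a sample. The 18 samples were 2 mitotic and 3 interphase GAF ChIP-seq samples, 2 mitotic and 2 interphase H4K8ac ChIP-seq samples, and an input for each. Whole embryos were used, so each list mixes all the nuclei of the embryo and a peak may come from a fraction of them. The lists hold only the chromosome, start and end of peaks called on the mean signal of the replicates, so the depth and height of a peak are unknown, replicate spread cannot be given, and the interphase GAF list rests on more samples than the mitotic one. Peaks of a pooled list are not replicates, so no test was made: the 95% intervals below are Wilson intervals for shares and Newcombe intervals for differences between shares, and both cover counting error only.

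GAF is the product of Trithorax-like (Trl). It binds GA-rich DNA, most simply the pentamer GAGAG, which reads CTCTC on the other strand, and it helps to open chromatin at promoters, enhancers and Polycomb-bound elements. Acetylation of H4 on lysine 8 is a mark of active chromatin that bromodomain proteins can bind. In mitosis most transcription stops and many factors leave the chromosomes, and factors or marks that stay are studied as bookmarks.

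The DNA under the mitosis-only peaks ranged from pure GA repeats to peaks with no pentamer (7 peaks, of which 2 were retained). For peaks with 1 pentamer or more, 120 bp from each of several is given, taken at the place with the most pentamers outside annotated untranslated regions. The stretches are from RefSeq Release 6 (dm6), plus strand, with GAGAG and CTCTC in capitals. The first 6 are from retained peaks, at sc (chrX:395917-396036), ac (chrX:369842-369961), kni (chr3L:20695571-20695690), Brd (chr3L:14972467-14972586), Notch (N, chrX:3136544-3136663) and spok (chr3R:3344843-3344962), and the last 4 are from peaks that were not retained, at l(1)sc (chrX:409442-409561), bowl (chr2L:3772892-3773011), Antp (chr3R:6915588-6915707) and opa (chr3R:4852467-4852586). The sc, ac, kni, Brd, l(1)sc and opa stretches lie upstream of the start site of their gene, and the N, spok, bowl and Antp stretches lie inside it.
sc: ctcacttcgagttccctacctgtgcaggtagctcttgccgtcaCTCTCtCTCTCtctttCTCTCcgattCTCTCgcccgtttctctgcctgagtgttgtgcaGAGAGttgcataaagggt
ac: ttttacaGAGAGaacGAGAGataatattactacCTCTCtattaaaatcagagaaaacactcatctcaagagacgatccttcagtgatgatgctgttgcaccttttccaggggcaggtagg
kni: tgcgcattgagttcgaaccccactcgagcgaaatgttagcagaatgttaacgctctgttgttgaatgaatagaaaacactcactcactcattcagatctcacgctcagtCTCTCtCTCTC
Brd: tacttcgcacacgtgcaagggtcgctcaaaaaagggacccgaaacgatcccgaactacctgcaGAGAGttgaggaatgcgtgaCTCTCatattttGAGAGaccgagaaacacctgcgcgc
N: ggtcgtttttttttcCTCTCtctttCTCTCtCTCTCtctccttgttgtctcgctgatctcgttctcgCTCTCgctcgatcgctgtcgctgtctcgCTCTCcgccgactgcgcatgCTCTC
spok: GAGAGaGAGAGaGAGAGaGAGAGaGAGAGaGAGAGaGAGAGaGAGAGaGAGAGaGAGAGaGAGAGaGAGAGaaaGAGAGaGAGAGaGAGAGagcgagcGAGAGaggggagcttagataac
l(1)sc: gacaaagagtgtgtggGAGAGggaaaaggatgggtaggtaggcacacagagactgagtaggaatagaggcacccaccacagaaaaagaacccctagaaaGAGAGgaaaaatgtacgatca
bowl: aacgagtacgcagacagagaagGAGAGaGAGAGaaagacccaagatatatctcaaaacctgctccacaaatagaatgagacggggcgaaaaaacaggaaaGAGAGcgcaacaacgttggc
Antp: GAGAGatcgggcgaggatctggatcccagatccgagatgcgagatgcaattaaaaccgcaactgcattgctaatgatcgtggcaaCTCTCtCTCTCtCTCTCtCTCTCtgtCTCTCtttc
opa: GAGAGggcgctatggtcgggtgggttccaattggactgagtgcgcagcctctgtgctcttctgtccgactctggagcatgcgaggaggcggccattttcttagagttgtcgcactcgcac
The spok stretch, in a gene for a cytochrome P450 of ecdysone synthesis, held 16 pentamers, the highest count in a 300 bp centre window of any mitosis-only peak. The Antp stretch held 6 pentamers in a peak that was not retained, so a dense GA run occurred in both groups, and the opa stretch held 1.

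The retained share of mitosis-only peaks was above that of GAF peaks with no H4K8ac, and it differed from that of GAF peaks with H4K8ac in both stages by less than the counting error. The share was 49.8% (interval 44.1 to 55.5%), beside 31.2% over all interphase GAF peaks. It was 51.2% in the class with both stages, 42.1% in the interphase-only class and 23.7% in the class with neither. The difference was 26.1 points to the class with neither (20.3 to 32.0), -1.37 points to the class with both (-7.88 to 5.16) and 7.75 points to the interphase-only class (-1.47 to 16.7). The deposited list of GAF peaks of both stages gave a higher share, 72.2% of the mitosis-only peaks beside 50.5% of all interphase GAF peaks. It held 65 mitosis-only peaks that overlapped no peak of the mitotic list and left out 0 that did.

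**Figure D1:**
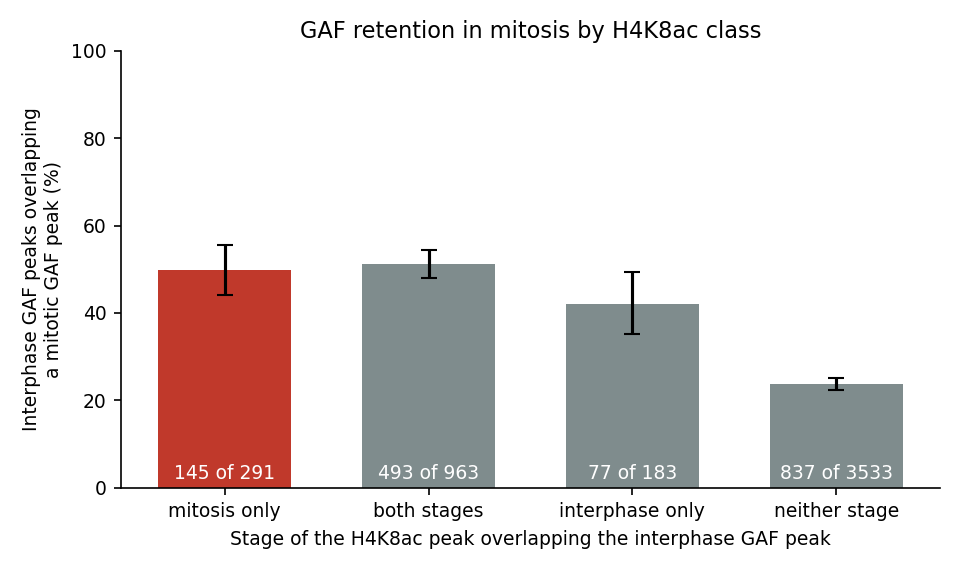
The share of interphase GAF peaks that overlapped a mitotic GAF peak (vertical axis, percent) by the stage of the overlapping H4K8ac peak; error bars are 95% Wilson intervals and the counts stand in the bars. The mitosis-only class (red, 145 of 291) lies beside the class with both stages (493 of 963) and above the class with neither (837 of 3533).

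Peak length went with retention in mitosis-only peaks and in all other GAF peaks. Retained mitosis-only peaks had a median length of 700 bp (range 200 to 3000), against 350 bp (100 to 1050) in those not retained, and in all other GAF peaks the medians were 700 bp in retained and 300 bp in not retained peaks. The median over all mitosis-only peaks was 500 bp, and it was 400 bp in all other GAF peaks. A mitosis-only peak of 650 bp or more was retained in 89 of 100 cases (89.0%), against 82.0% of 1019 other peaks, and one of 450 to 600 bp in 39 of 67 cases (58.2%), against 47.5%. At 300 to 400 bp it was 14 of 63 (22.2%), against 4.66%, and at 100 to 250 bp it was 3 of 61 (4.92%), against 2.36%. Most of the short retained mitosis-only peaks lay in the histone gene cluster described below. Without its peaks, 2 of 51 mitosis-only peaks of 300 to 400 bp were retained (3.92%, interval 1.08 to 13.2%) and 0 of 53 of 100 to 250 bp (upper limit 6.76%). In the class with no H4K8ac, whose median length was 350 bp, the shares were 77.9% at 650 bp or more, 45.0% at 450 to 600 bp, 4.31% at 300 to 400 bp and 2.09% at 100 to 250 bp, so the gap to this class was smaller within a length class than over all lengths. Whether length reflects GAF signal was not tested, since the lists keep no signal.

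**Figure D2:**
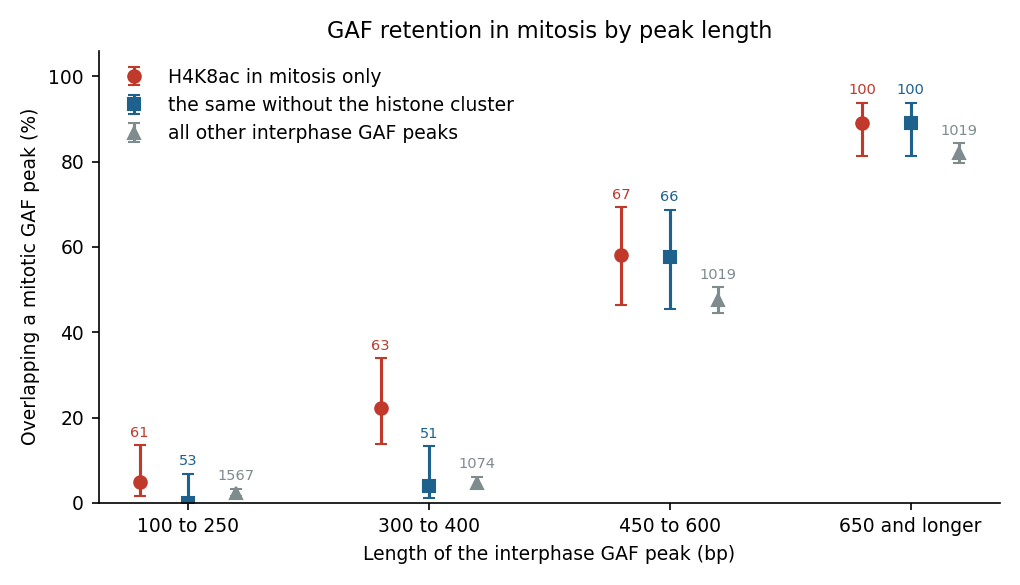
The share of GAF peaks that overlapped a mitotic GAF peak (vertical axis, percent) in 4 classes of peak length (horizontal axis, bp), for mitosis-only peaks (red), the same without the histone cluster (blue) and all other interphase GAF peaks (grey); bars are 95% Wilson intervals and the numbers above them are peaks. The shares are highest at 650 bp and more (89.0% of mitosis-only peaks and 82.0% of the others), and the red point at 300 to 400 bp (22.2%) stands at 3.92% without the histone cluster.

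In the mitotic list a retained peak was usually narrower. The methods give a longer sonication for mitotic than for interphase chromatin, and its part in the width was not tested. The mitotic GAF peaks covered a median of 50% of a retained mitosis-only peak (range 11.1 to 100%), against 42.1% of a retained peak elsewhere, and 131 of the 145 retained peaks met 1 mitotic GAF peak while 14 met more. Mitosis-only peaks that were not retained lay a median of 13200 bp from the nearest mitotic GAF peak, and 0 lay within 200 bp of one.

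A mitotic H4K8ac peak was called an extension when it overlapped an interphase H4K8ac peak somewhere else along its length, and new when it overlapped none. These values come from the same H4K8ac lists that picked the peaks, so they are a description. By this measure 227 of the 291 GAF peaks lay in an extension and 64 in a new peak. Of the 242 mitotic H4K8ac peaks that held them 182 were extensions (75.2%, interval 69.4 to 80.2%), near the 78.3% of all 5405 mitotic H4K8ac peaks. The 242 were longer (median 3075 bp, against 1150 bp over all 5405), and the shares were not matched for length. Of the 227, 65 lay between interphase H4K8ac peaks that the mitotic peak joined, with a median gap of 4000 bp between them (2000 to 52550 bp), and 162 lay on a flank beyond the outermost interphase peak. There the mitotic peak reached a median of 1550 bp past it (50 to 17450 bp). As the mirror case, 115 of the 183 GAF peaks with H4K8ac in interphase only (62.8%) lay in an interphase peak that overlapped a mitotic one, against 227 of 291 (78.0%) here.

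The GAF peaks fell under 242 mitotic H4K8ac peaks, 60 new (beside 21.7% of all 5405 mitotic H4K8ac peaks) and 182 extensions, and 217 of these held 1 mitosis-only GAF peak. The new H4K8ac peaks had a median length of 450 bp (100 to 5200 bp), and the extensions had 4425 bp (150 to 92850 bp). All 1175 new peaks of the mitotic H4K8ac list had a median of 200 bp, and 62 of them met an interphase GAF peak. A length of 200 bp or less was found in 26 of the 60 new peaks over these GAF peaks (43.3%), against 685 of all 1175 (58.3%). Both H4K8ac lists hold no 2 peaks less than 2000 bp apart, so a listed interval may bridge stretches below the threshold that the lists do not show, and the H4K8ac level at a GAF peak inside one is unknown.

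The distance to interphase H4K8ac had a median of 850 bp over the 291 peaks, beside 3650 bp over all interphase GAF peaks. It too comes from the lists that picked the peaks. In the mirror case, the 183 GAF peaks with H4K8ac in interphase only lay a median of 750 bp from mitotic H4K8ac. Of the 291 peaks, 21 touched an interphase H4K8ac peak without overlapping it. Their median distance was 4475 bp under new H4K8ac (250 to 203450 bp) and 650 bp under extensions (0 to 24700 bp). Among the 291, retained peaks had a median distance of 1100 bp, against 675 bp in those not retained. An interphase H4K8ac peak lay within 2000 bp of 93 of 145 retained peaks (64.1%), against 122 of 146 not retained (83.6%), a difference of -19.4 points (-29.0 to -9.37). New H4K8ac also went with retention: 40 of 64 GAF peaks under new H4K8ac were retained (62.5%), against 105 of 227 under an extension (46.3%), a difference of 16.2 points (2.38 to 28.8). Read the other way, 40 of 145 retained peaks were under new H4K8ac (27.6%), against 24 of 146 not retained (16.4%). Among the 76 of them with no interphase H4K8ac within 2000 bp this difference turned to -9.29 points, with an interval that holds 0. Length moved with both: GAF peaks under new H4K8ac had a median of 575 bp, and those under an extension had 450 bp. The part of length in the difference was not tested.

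**Figure D3:**
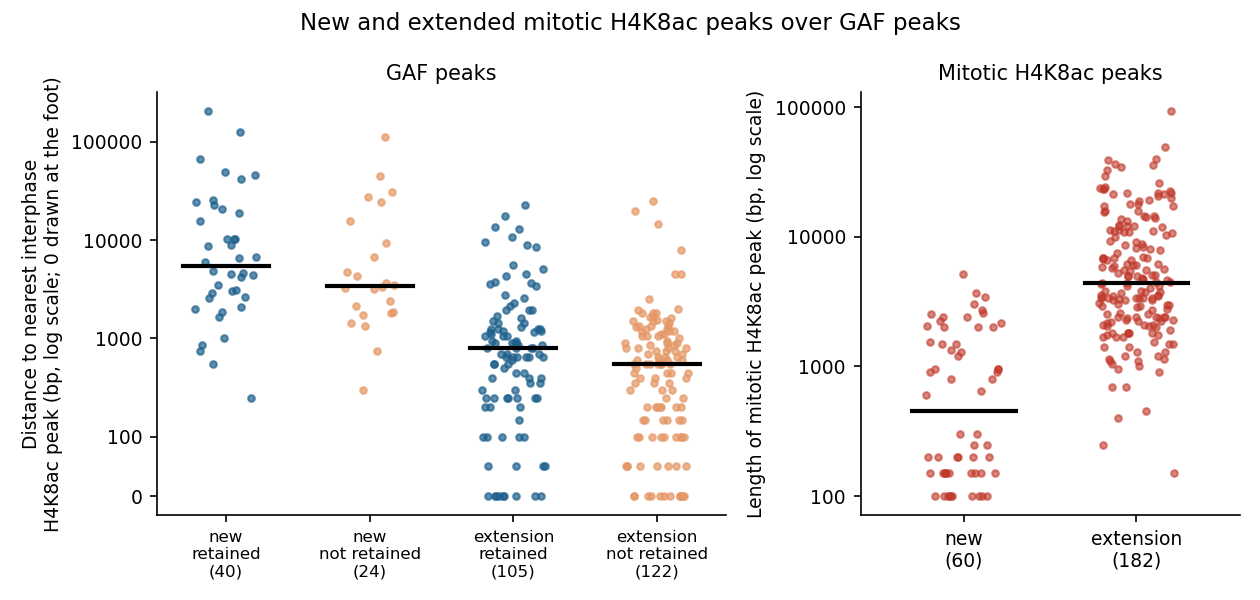
Left, the distance of each mitosis-only GAF peak to the nearest interphase H4K8ac peak (bp, log axis, 0 drawn at the foot), for retained (blue) and not retained (orange) peaks under new and extended mitotic H4K8ac. Right, the length of each mitotic H4K8ac peak that held one (bp, log axis); black lines are medians and the numbers are counts. New H4K8ac peaks sit low on the right (median 450 bp, against 4425 bp for extensions), and their GAF peaks sit high on the left (4475 bp, against 650 bp).

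The rule asked for an overlap of at least 1 bp, and the intervals come in 50 bp steps. Just inside it, 30 of the 291 peaks shared only 50 bp with mitotic H4K8ac, while 197 lay wholly inside the mitotic peak. Just outside it, 27 peaks without H4K8ac touched a mitotic H4K8ac peak at 0 bp, and 14 peaks counted under both stages met interphase H4K8ac by 50 bp or less.

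At promoters, taken as 100 bp on either side of an annotated start site, mitosis-only peaks stood above the GAF peaks with no H4K8ac and below those with H4K8ac in both stages. A promoter was overlapped by 127 of 291 peaks (43.6%), beside 37.7% of all interphase GAF peaks, 55.8% with H4K8ac in both stages, 47.5% with H4K8ac in interphase only and 31.7% with none. The difference to the interphase-only class, -3.90 points, was within the counting error (-13.0 to 5.24). Without the histone gene cluster described below, whose 21 mitosis-only peaks all overlapped a promoter, the share was 39.3% (interval 33.6 to 45.2%). Retained peaks were more often at a promoter, 86 of 145 (59.3%), against 41 of 146 not retained (28.1%), a difference of 31.2 points (19.97 to 41.4). It was 28.7 points without that cluster (17.1 to 39.3). The same difference in all other GAF peaks was 25.7 points (22.7 to 28.7). By the peak centre the difference among mitosis-only peaks was smaller. The centre lay at a promoter in 35 of 145 retained peaks (24.1%), against 22 of 146 not retained (15.1%). This difference, 9.07 points, had an interval that holds 0 (-0.0809 to 18.1). Retained peaks were longer, and the part of length in the overlap with promoters was not tested. Under new H4K8ac 54.7% overlapped a promoter, against 40.5% under an extension. By the peak centre, 126 lay in introns (43.3%, beside 45.7% of all interphase GAF peaks), 71 between genes (24.4%, beside 27.1%), 57 at promoters (19.6%, beside 14.7%) and 37 in exons (12.7%, beside 12.5%). Of the 57, 21 lay in the histone gene cluster, and without that cluster 36 of 270 peaks were centred at a promoter (13.3%, interval 9.79 to 17.9%). For 66 peaks in extensions with start sites on 1 strand only, the nearest interphase H4K8ac lay on the gene side in 35 (53.0%, interval 41.2 to 64.6%) and upstream in 31.

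The GAGAG content of the centre of the peak was close to that over all interphase GAF peaks, and above that of GAF peaks with H4K8ac in both stages. In the 300 bp around the centre, GAGAG on either strand, counted without overlaps, was found in 92.8% of mitosis-only peaks, beside 93.8% of all interphase GAF peaks. A count of 4 or more was found in 38.8% (34.1% without the histone gene cluster, interval 28.7 to 39.9%), beside 40.2%. It was found in 27.1% of peaks with H4K8ac in both stages, a difference of 11.7 points (5.59 to 18.1), in 31.1% of those with H4K8ac in interphase only and in 44.3% of those with none. Retained peaks had 4 or more in 80 of 145 cases (55.2%), against 33 of 146 not retained (22.6%), a difference of 32.6 points (21.6 to 42.5), and in all other GAF peaks it was 17.1 points (14.0 to 20.1). The median count was 4 in retained peaks and 2 in those not retained. Over the whole peak 7 had no pentamer, of which 2 were retained. The Zelda motif CAGGTAG, bound by the other main early pioneer factor, was in 12 windows (4.12%, interval 2.37 to 7.07%), beside 2.13% of all. The share was 3.95% in peaks with H4K8ac in both stages, a difference of 0.178 points, within the counting error (-2.08 to 3.31). TATCGATA, bound by DREF, was in 2 (0.687%), beside 0.402%. Both were searched on both strands, and a match is only a match of letters.

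The 2 mitotic H4K8ac peaks over the histone gene cluster on chromosome arm 2L held more mitosis-only GAF peaks than any other. The cluster is a tandem array in which a full unit carries the 5 genes for histones H1, H2A, H2B, H3 and H4. Some units lack His2A or His4 in the annotation used. GAF binds the promoter that His3 and His4 share. The mitotic H4K8ac peaks were chr2L:21416501-21440551 (24050 bp) and chr2L:21450351-21543201 (92850 bp, the longest of the list that held a mitosis-only GAF peak). Interphase H4K8ac covered 350 bp and 3000 bp of them, 1.46% and 3.23%. Of their 23 interphase GAF peaks 21 were mitosis-only peaks, and 16 of these were retained (76.2%), although they were short, 200 to 550 bp. They lay about 5000 bp apart (medians 4950 and 5050 bp) and each overlapped a promoter. Without them 129 of 270 mitosis-only peaks were retained (47.8%).

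The units differ by a few letters around the CT run of the shared promoter, and these letters went with the mitotic GAF calls. A stretch that runs from GAGAG past the CT run was found in 22 of the 23 GAF peaks, in 6 forms. The 6 GAF peaks with form 1 (5 of them mitosis-only peaks) all lacked a mitotic GAF peak, and all 16 with the other forms had one. Forms 1 to 4 are printed from the plus strand of RefSeq Release 6, at the first copy of each (form 1, chr2L:21489696-21489796; form 2, chr2L:21459315-21459413; form 3, chr2L:21435165-21435265; form 4, chr2L:21419993-21420095), with GAGAG and CTCTC in capitals.
form 1: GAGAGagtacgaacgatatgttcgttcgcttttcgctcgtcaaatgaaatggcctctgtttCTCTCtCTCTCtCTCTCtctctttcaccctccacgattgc
form 2: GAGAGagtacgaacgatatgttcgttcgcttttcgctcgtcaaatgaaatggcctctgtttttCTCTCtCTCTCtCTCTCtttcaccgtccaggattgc
form 3: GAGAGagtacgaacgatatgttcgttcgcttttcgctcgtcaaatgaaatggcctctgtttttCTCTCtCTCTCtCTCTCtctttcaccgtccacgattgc
form 4: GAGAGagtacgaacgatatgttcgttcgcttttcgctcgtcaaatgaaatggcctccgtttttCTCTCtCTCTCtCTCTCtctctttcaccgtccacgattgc
Form 5, in 3 retained mitosis-only peaks, was 2 bases longer than form 1 and held 5 pentamers where form 1 held 4. Form 6, in 1 retained mitosis-only peak of 550 bp, also held 5. Forms 2, 3 and 4 held 4 pentamers as well, in retained peaks. The GAF peaks with form 1 were all 250 bp long in interphase. Those with form 5 were 250 to 300 bp, and those with forms 2 to 4 were 300 to 400 bp. The form 1 peaks were thus the shortest of those with the stretch, a length that only form 5 shared. The part of length or pentamer count in the mitotic calls was not tested. Copies of 1 form are identical over about 100 bp, so reads from them cannot be told apart there, the peaks of 1 form are not separate measurements, and the number of copies in the yw embryos may differ from that in the assembly. The forms were compared after the values were seen.

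**Figure D4:**
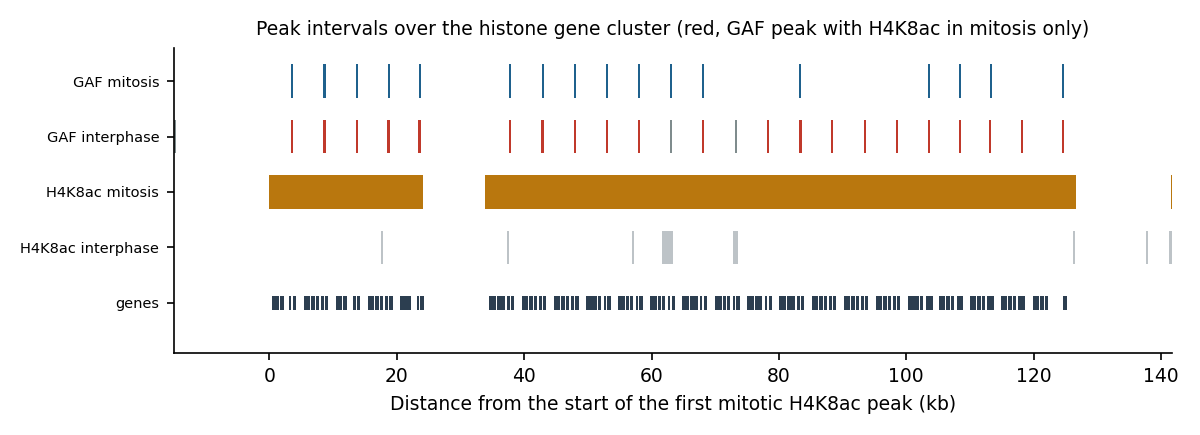
Peak intervals over the histone gene cluster against the distance from the start of the first mitotic H4K8ac peak (kb), with the genes below. Mitosis-only GAF peaks (red, 21 in all) repeat about every 5000 bp. They lie under mitotic H4K8ac peaks of 24050 and 92850 bp that hold 350 and 3000 bp of interphase H4K8ac. Of the 23 interphase GAF peaks under these, 6 have no mark in the GAF mitosis row, those with form 1. An interphase GAF peak at the left edge, outside these H4K8ac peaks, has none either.

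Mitosis-only peaks were found at many patterning genes. Of 161 genes in 18 lists of early developmental, chromatin and stress genes, 125 had an interphase GAF peak on the gene or within 1000 bp, and 32 of these had a mitosis-only peak there (25.6%, interval 18.8 to 33.9%), beside 9.99% of all 3773 annotated genes with a GAF peak. Of the 125 genes, 21 had a retained one, beside 5.54% of all 3773 genes. The genes shared 37 mitosis-only peaks, 20 of them retained and 2 under new H4K8ac. A peak that held the start site of the list gene was retained in 14 of 16 cases, and a peak elsewhere at the gene in 6 of 21. Among all mitosis-only peaks, 86 of the 127 that overlapped a promoter were retained, beside 778 of 1745 in all other GAF peaks. The part of length in this was not tested.

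Among the early neural genes 6 of the 10 with a GAF peak had a mitosis-only peak, and at 5 it was retained. This was the highest share of any list (60%, interval 31.3 to 83.2%), but the lists are small. Its interval overlapped those of the Hox, Notch pathway and pair-rule lists. The proneural genes of the achaete-scute complex encode bHLH factors and sit close together on the X. At sc the GAF peak (chrX:395601-396351, 750 bp) covered the start site, held 6 pentamers, was retained, and lay between interphase H4K8ac peaks that sum to 650 bp, joined in mitosis into 21800 bp. At l(1)sc, under the same mitotic H4K8ac peak, a GAF peak of 200 bp just upstream of the gene (chrX:409401-409601) was not retained. At ac the retained GAF peak (chrX:369601-370201, 600 bp) lay under a new H4K8ac peak of 2000 bp, 24150 bp from the nearest interphase H4K8ac. These 3 neighbours thus showed an extension with GAF, an extension without mitotic GAF, and a new H4K8ac peak with GAF. D, a SoxB gene, esg, a Snail-family gene, and nub, a POU gene, each had a retained peak over a start site, of 1150, 1750 and 1050 bp. At esg the mitotic H4K8ac peak (11000 bp) held 2900 bp of interphase H4K8ac, the nearest interphase H4K8ac lay 100 bp from the GAF peak, and the GAF peak met 2 mitotic GAF peaks. The paper describes the H4K8ac mark at esg in interphase as well as in mitosis. Interphase H4K8ac was listed on both sides of this GAF peak, so its class concerns the GAF peak alone and not the locus.

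**Figure D5:**
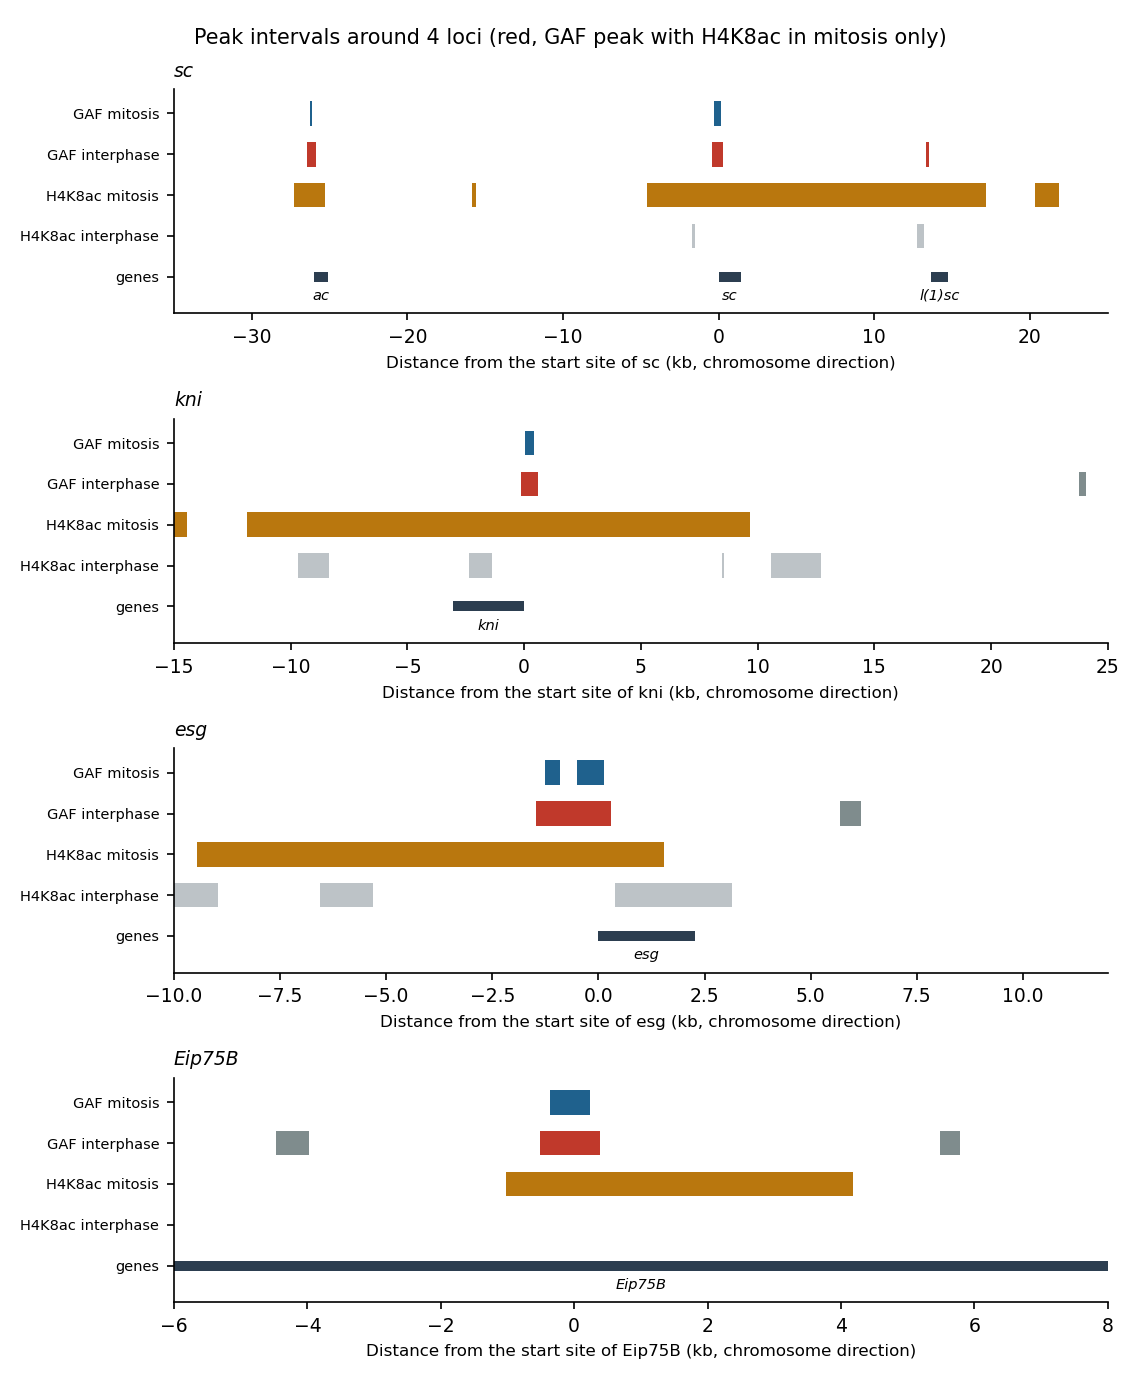
Peak intervals around sc, kni, esg and Eip75B against the distance from the start site (kb), with mitotic above interphase intervals and the named genes at the foot. The mitosis-only GAF peaks (red) at the start sites of sc, kni and esg lie in interphase gaps that the mitotic H4K8ac peak bridges, and those at ac and Eip75B lie under mitotic H4K8ac (2000 and 5200 bp) with no interphase H4K8ac in it.

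Among the segmentation genes the gap and pair-rule lists had mitosis-only peaks. Of the gap genes with a GAF peak, 2 of 6 had a mitosis-only peak. At Kr, a zinc-finger gap gene on arm 2R, a mitotic H4K8ac peak of 17400 bp that held 600 bp of interphase H4K8ac covered 4 GAF peaks: those over the start site (500 bp) and far upstream of it, with its centre at -11359 bp (600 bp), were retained, and those of 250 and 200 bp were not. At kni the peak over the start site (chr3L:20695251-20695951, 700 bp) was retained, under 21550 bp of mitotic H4K8ac with 2400 bp in interphase. Of the pair-rule genes 3 of 7 had one: eve (650 bp, 7 pentamers) and run (800 bp, 8 pentamers) had a retained peak over the start site, and opa had a peak of 150 bp that was not retained. The segment polarity genes had 0 of 8 and the head genes 0 of 5, with upper limits of 32.4% and 43.4%. Of the Hox genes 3 of 6 had a mitosis-only peak, each inside the gene. The peak of 1 of them (1500 bp) was retained, and those at Antp (250 bp) and abd-A (150 bp) were not.

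The Notch pathway genes had a mitosis-only peak in 5 of 11 cases, 3 with a retained one. At N, the receptor, a peak of 700 bp with 7 pentamers inside the gene was retained, with 100 bp of interphase H4K8ac in a mitotic peak of 2400 bp. Brd, a Bearded-family regulator of Delta traffic, and the bHLH repressor gene E(spl)mdelta-HLH had retained peaks of 450 and 750 bp. At E(spl)mbeta-HLH and E(spl)m3-HLH, in 1 mitotic H4K8ac peak of 39800 bp of which 34900 bp was already listed in interphase, the peaks (400 and 500 bp) were not retained. The E(spl)mbeta-HLH peak covered the start site of its gene, so it was an exception to the start-site pattern of the list genes. The retained and not retained genes of this family thus differed in the H4K8ac peak they lay in as well.

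In the dorsal list 2 of 8 genes had a mitosis-only peak: dpp, a BMP ligand, had a retained peak of 800 bp over a start site, and ush, a cofactor of GATA factors, had peaks of 550 and 750 bp inside the gene that were not retained. The peak of 750 bp also covered the start site of cbt, a gene inside ush and the one nearest to both peaks, so it was an exception to the pattern of length and start site. In the mesoderm list, 2 of 7, zfh1 (600 bp) and the FGF adaptor gene stumps (100 bp) had peaks that were not retained. In the neurogenic ectoderm list, 1 of 8, the peak at vn, which encodes an EGF receptor ligand, had 150 bp and was not retained. Of the terminal and gut genes, 2 of 6, the GATA factor gene srp had a retained peak of 450 bp, and bowl had a peak of 300 bp under new H4K8ac of 200 bp that was not retained. The peak of hth, a TALE homeobox gene, was retained (450 bp), and it was the 1 gene with a mitosis-only peak among 13 appendage genes.

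Chromatin and stress genes added few. Trl, the gene for GAF itself, had a retained peak of 1200 bp inside the gene, 1 of 5 in its list. In the Polycomb list 1 of 6 genes had a mitosis-only peak: ph-p had 4, with 200 bp of interphase H4K8ac in a mitotic peak of 4500 bp, and the peak of 550 bp at a start site was retained while those of 650, 300 and 250 bp were not. The peak of 650 bp covered a start site and held 6 pentamers, so it was an exception to that pattern as well. The cell death gene hid (1 of 4) had a retained peak of 1850 bp over its start site that met 3 mitotic GAF peaks. The heat shock genes Hsp22 and Hsp67Bc (2 of 8) shared 1 retained peak of 850 bp over the Hsp22 start site, which touched interphase H4K8ac at 0 bp. Blastoderm cell cycle genes (0 of 6) and cellularization genes (0 of 1) had none, and of 5 genes with a GAF peak that the study itself names, esg alone had one. Some of those genes were picked on the GAF peaks of these samples, and scyl and chrb also on an earlier report of a loop between them.

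The longest peaks of each kind were chosen by rule. Under new H4K8ac the longest retained peak lay at a start site of for, a cGMP-dependent protein kinase gene (chr2L:3655301-3658301, 3000 bp, 11 pentamers, under 900 bp of new H4K8ac), and the longest not retained lay in CG32767 (1050 bp, 111900 bp from interphase H4K8ac). Under an extension they lay in crol, a zinc-finger gene (chr2L:11806401-11808351, 1950 bp, 21 pentamers, retained), and 38614 bp from the start site of CG41128, outside that gene (chr3R:3788451-3789501, 1050 bp, 14 pentamers, not retained). The peaks richest in pentamers in the centre window lay at spok (16, new, retained), Pak3, a kinase gene (9, extension, retained), RYa, a neuropeptide gene whose start site was 84106 bp away (9, new, not retained), and Antp (6, extension, not retained). The longest new H4K8ac peak with a mitosis-only GAF peak (5200 bp) lay at a start site of Eip75B, an ecdysone-induced nuclear receptor gene, where the GAF peak (chr3L:17999301-18000201, 900 bp) was retained and the nearest interphase H4K8ac was 45450 bp away. Tis11, which encodes an mRNA decay factor, had 3 mitosis-only peaks in 8150 bp of mitotic H4K8ac, those of 700 and 550 bp retained and that of 250 bp not.

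Mitosis-only peaks made up 4.70 to 7.08% of the GAF peaks of each chromosome. The highest share was on 2L (54 of 763), and without the histone cluster it was 4.45%, so the chromosomes then lay close together. Over 50% of the sequence was masked as repeat in 24 mitosis-only peaks (8.25%), beside 15.5% of all interphase GAF peaks. Of those, 6 were retained.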

How the data were processed

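Mitotic and interphase wild type embryos were profiled by ChIP-seq with antibodies to GAF and H4K8ac. The authors trimmed reads with Cutadapt 1.16, mapped them to dm6 with Bowtie2, and averaged an input-subtracted, depth-scaled signal over replicates in 50 bp bins. They called peaks where it passed a threshold, and the deposited values are the start and end positions of these peaks in bp, with no signal, score or read count. The GAF lists carry the settings 100, 50 and 200 in their names (threshold, shortest run, largest gap joined), and the H4K8ac lists carry 22, 30 and 2000, which differ in part from the settings the methods give for H4K8ac. No 2 peaks of either H4K8ac list lay less than 2000 bp apart. How reads that map to several places were treated is not given in the sources used here, and of the depth only a range over all libraries is given, not the depth of each sample.

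Overlap meant at least 1 bp, with positions as deposited. Start sites, genes and untranslated regions came from Ensembl release 115 and sequences from RefSeq Release 6, both dm6, and 3 of the 166 listed genes matched through an older symbol. Windows were 300 bp around the peak centre. Shares carry 95% Wilson intervals and differences carry Newcombe intervals (Python 3.11.15, SciPy 1.17.1), and the code was tested on simulated data. The peaks and gene lists were chosen with earlier results of these data known. Genes were named by rule: list genes within 1000 bp of a mitosis-only peak (the 30 of 32 with the nearest start site), the longest and the most GAGAG-rich peak of each kind, the 5 mitotic H4K8ac peaks with most GAF peaks, and the longest new and extended ones. The alternatives changed overlap, distance, length, window and promoter settings. A deposited list of GAF peaks of both stages served as 1 alternative: of its 2362 peaks, 33 overlapped no interphase GAF peak of the list used and 835 no mitotic one. The deposited list of H4K8ac peaks of both stages was not used.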

Additional observations from a re-analysis of the deposited data

How the results depend on the processing

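Of 107 values under other settings, 73 stayed within the interval of the value reported or within 1.5 times its count. With no interphase H4K8ac allowed within 2000 bp, 76 GAF peaks under 59 mitotic H4K8ac peaks remained, with a median distance of 6625 bp and 3.28% of the 2L peaks. Retention was 68.4% (50% at 300 to 400 bp), 37.8 points above the rest, 64.5% were new, 51.3% had 4 or more GAGAG and 59.2% overlapped a promoter. The differences between retained and not retained peaks were then -9.29 points for new H4K8ac, 20.2 for GAGAG and 13.5 for promoters, each with an interval that holds 0. With GAF peaks of 400 bp or more, 193 peaks with a median of 650 bp remained, 69.9% retained, 12.9 points above the rest, and 51.3% at promoters with a difference of 19.1 points. Retention was 72.2% by the deposited list of both stages and 26.8% where mitotic GAF had to cover 50% of the peak. The share under new H4K8ac was 33.9% with H4K8ac peaks of 400 bp or more (median distance 650 bp), 13.8% with 50% of the GAF peak in mitotic H4K8ac (5.37% of 2L peaks), and 17.5% where interphase H4K8ac within 2000 bp made an extension. The share with 4 or more GAGAG was 30.2% in a 200 bp window, 58.1% with overlapping matches and 57.0% over the whole peak (difference 49.9 points). Promoters of 1000 bp upstream to 100 bp downstream gave 58.8% and a difference of 17.6 points. Without the histone cluster, a setting chosen after seeing the data, retention at 300 to 400 bp was 3.92% and the 2L share 4.45%. The cause of these shifts was not tested. No paired analysis was possible because each stage has 1 pooled peak list per ChIP, and leaving out replicates was not run for the same reason. Peak heights are not in the lists, so a peak just under the threshold counts as absent.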
